A study of Mus musculus with 8 samples.

Results

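The RNA of 35 genes that mark macrophages, the Kupffer cells of the liver and MHC class II antigen presentation was examined in cultured mouse fetal liver cells. The genes were chosen by name, and 34 of the 35 were listed under those symbols among the 23467 genes of the deposited table. The remaining gene, *Spi1*, was listed as *Sfpi1*, its older symbol, and was included under that name. Liver cells of E14.5 embryos of a mixed B6;129 strain were cultured as hepatoblasts (iHBs), differentiated to hepatocytes (iHPs) with 12.5 ng/ml oncostatin M for 5 days per the labels, or differentiated to biliary epithelial cells (iBECs) on Matrigel for 14 days. Control libraries were labelled wild type, with 1 library in each of the 3 stages. The other libraries were labelled Lats1-/-; Lats2f/fl; Alb-cre (L1L2_Alb), with 1 library of iHBs, 2 of iHPs and 2 of iBECs. *Lats1* and *Lats2* encode kinases that restrain YAP and TAZ. By its label the *Lats1* deletion is carried by every cell, blood cells included, whereas the albumin promoter drives Cre in hepatoblasts and their descendants. The methods describe plating all cells of the digested liver after lysis of red cells, with no sort. Neither the labels nor the methods say whether libraries of a condition came from separate embryos, so p-values measure only the spread between these libraries. In the fit of stage and genotype, that spread also holds any genotype effect that differs between stages.

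Kupffer cells are the resident macrophages of liver sinusoids. In the fetus the liver is also the main site of blood formation, and macrophages, monocytes and granulocytes develop beside the hepatoblasts. Macrophages depend on the CSF1 receptor and the transcription factor PU.1, recognise antibodies through Fc receptors, make complement C1q and degrade what they engulf in lysosomes. MHC class II molecules, which present peptides to CD4 T cells, are made by dendritic cells, B cells and some macrophages. They are pairs of an alpha and a beta chain, escorted by the invariant chain encoded by *Cd74*.

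The promoters of the MHC class II genes share a CCAAT-type element, the Y box, which is bound by NF-Y. The promoters of 2 MHC class II members, *H2-Aa* and *H2-Eb1*, are shown, both of which were highest in the same library. Sequences are from RefSeq on GRCm38.p6, and 26 of the 35 members had a promoter in that table. The MHC class II members *Cd74* and *H2-Ab1* had none there and were not searched. The 250 bases before the start are given 5′ to 3′ on the strand of the gene, with the letters CTGATTGG in capitals.
*H2-Aa*, chr17:34287824-34288073, reverse strand: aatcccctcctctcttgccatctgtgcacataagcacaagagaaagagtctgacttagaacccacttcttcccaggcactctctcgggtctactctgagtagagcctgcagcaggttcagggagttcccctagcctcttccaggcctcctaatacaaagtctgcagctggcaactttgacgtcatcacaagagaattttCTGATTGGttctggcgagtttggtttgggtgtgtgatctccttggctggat
*H2-Eb1*, chr17:34305617-34305866, forward strand: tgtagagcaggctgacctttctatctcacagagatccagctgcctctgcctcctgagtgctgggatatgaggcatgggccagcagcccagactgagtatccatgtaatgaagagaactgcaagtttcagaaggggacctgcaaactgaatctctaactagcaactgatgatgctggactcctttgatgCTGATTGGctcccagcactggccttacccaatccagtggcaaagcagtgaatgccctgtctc
The letters were found on the strand of the gene, beginning 51 bases before the start in *H2-Aa* and 62 bases before it in *H2-Eb1*. Among all 32851 promoters of the table, 3.83% held CTGATTGG on either strand. No other member with a promoter held it. Of the 5 members that rose in iBECs against iHPs, *Emr1* had no promoter in the table and that of *Gpnmb*, which had the largest difference, did not hold the letters searched next. The other 3 are shown, with GAGGAA, the core of the sites bound by PU.1, or its reverse complement in capitals.
*Cd5l*, chr3:87357631-87357880, forward strand: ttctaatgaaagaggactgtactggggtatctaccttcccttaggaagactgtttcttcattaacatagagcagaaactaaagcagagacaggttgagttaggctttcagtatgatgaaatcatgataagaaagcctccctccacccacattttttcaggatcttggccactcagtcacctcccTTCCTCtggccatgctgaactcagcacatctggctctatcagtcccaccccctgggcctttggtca
*Trem2*, chr17:48346151-48346400, forward strand: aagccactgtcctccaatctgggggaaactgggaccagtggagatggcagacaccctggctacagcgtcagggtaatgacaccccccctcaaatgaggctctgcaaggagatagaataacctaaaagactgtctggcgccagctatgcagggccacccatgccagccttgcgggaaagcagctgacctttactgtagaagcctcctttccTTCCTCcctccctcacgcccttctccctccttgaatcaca
*Ctss*, chr3:95526536-95526785, forward strand: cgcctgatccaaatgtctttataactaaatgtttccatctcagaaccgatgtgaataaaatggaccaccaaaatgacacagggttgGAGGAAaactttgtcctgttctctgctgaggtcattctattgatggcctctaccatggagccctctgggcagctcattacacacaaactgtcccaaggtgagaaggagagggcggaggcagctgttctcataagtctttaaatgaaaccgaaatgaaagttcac
GAGGAA began 164 bases before the start on the strand of the gene in *Ctss*, and its reverse complement TTCCTC began 66 bases before the start in *Cd5l* and 40 bases before it in *Trem2*. The letters were found on either strand in 16 of the 29 promoters of members, which is 55.2%, and in 23.3% of all promoters. A match of letters in these windows is a description and shows no binding.

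Recovered depth was between 18436865 and 33229075 reads per library. Values are RPKM, reads scaled by gene length and library size, and tests were made on log2(RPKM + 1). *Lats1* RNA was below its control in 1 of the 5 libraries labelled L1L2_Alb and *Lats2* RNA in 0 of the 5 (log2 differences of 0.44, adjusted p = 0.46, and 0.90, adjusted p = 0.0312, limma). The paper reports reduced expression of both kinases in its cells of this genotype. The values here are per gene and not per exon, so reads on exons left by the deletion could not be set apart. Why the RNA of these genes was not lower was not tested. These RNA levels therefore do not check the genotype labels, and every direction below is that of libraries as labelled. Other genes did differ with the label, among them the biliary keratin *Krt7* (2.17, adjusted p = 0.00422) and the hepatocyte factor *Hnf4a* (-1.33, adjusted p = 0.00373). Of 10 neutrophil markers, the summed level was highest in control iHB (14940 RPKM) and lowest in L1L2_Alb iHP 2 (68.6 RPKM).

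RNA of genes that macrophages express was present in every library. The summed level of 10 core genes (*Csf1r*, *Sfpi1*, *Tyrobp*, *Fcer1g*, *Laptm5*, *Cd53*, *Ptprc*, *Coro1a*, *Aif1* and *Mpeg1*) was 1653 RPKM in control iHB and 1271 RPKM in L1L2_Alb iHB. For iHPs the sum was 1020 (control), 337 and 469.6 RPKM, and for iBECs 802 (control), 1045 and 1191 RPKM, with the libraries labelled L1L2_Alb in the order of their numbers here and below. The iHP libraries labelled L1L2_Alb were thus the lowest of the 8, and those of iBECs were above their control. In bulk RNA, fewer cells of a type and less RNA per cell cannot be told apart. The core sum also holds genes that neutrophils express, and their part in it was not tested. All 35 members together made up 0.265% of the summed RPKM of all genes in L1L2_Alb iHP 1, the lowest library, and 0.949% in L1L2_Alb iBEC 2, the highest.

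**Figure D1:**
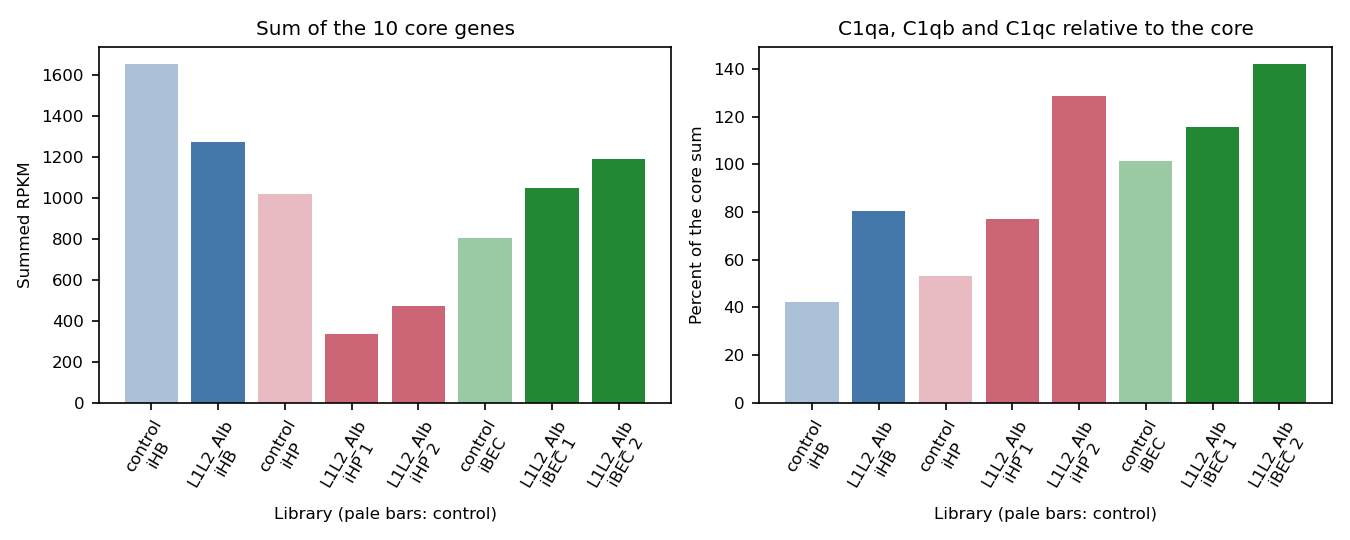
Left, summed RPKM of the 10 core genes in each of the 8 libraries. Right, summed RPKM of *C1qa*, *C1qb* and *C1qc* as a percent of the core sum. Colours mark the stage and pale bars the control libraries. The core sum is lowest in the iHP libraries labelled L1L2_Alb, at 337 and 469.6 RPKM, and the C1q share runs from 42.3% in control iHB to 142% in L1L2_Alb iBEC 2.

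Of the genes that all leukocytes use, *Ptprc* encodes the surface phosphatase CD45 and *Coro1a* an actin-binding protein. *Ptprc* stood at 28.0 (control) and 12.6 RPKM (L1L2_Alb) in iHBs, at 14.9 (control), 4.00 and 3.59 RPKM in iHPs, and at 9.17 (control), 8.67 and 9.82 RPKM in iBECs. *Coro1a* stood at 286 (control) and 138 RPKM (L1L2_Alb) in iHBs, at 167 (control), 16.6 and 13.1 RPKM in iHPs, and at 56.4 (control), 33.2 and 54.3 RPKM in iBECs. Both genes were lower in the libraries labelled L1L2_Alb of iHBs and iHPs, while in iBECs *Ptprc* lay on either side of its control. Across the stages the log2 difference was -0.93 for *Ptprc* (standard error 0.31, adjusted p = 0.0998, limma) and -1.67 for *Coro1a* (standard error 0.51, adjusted p = 0.0762), and neither passed the threshold of 0.05. Of 10 neutrophil markers, 0 passed in the genotype comparison with limma, with a median log2 difference of -3.35. Neutrophils also express both genes, and the summed neutrophil markers were lower by a wide margin in the same iHP libraries (10140 RPKM in the control, 497 and 68.6 RPKM in those labelled L1L2_Alb). Their part in these values was not tested.

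*Csf1r*, the receptor for the macrophage growth factors CSF1 and IL-34, did not follow *Coro1a*. It stood at 137 (control) and 189 RPKM (L1L2_Alb) in iHBs, at 79.1 (control), 58.7 and 52.4 RPKM in iHPs, and at 63.2 (control), 74.6 and 118 RPKM in iBECs. The fit gave *Csf1r* a difference of 0.15 in log2 units (SE 0.26, adjusted p = 0.767, limma). *Tyrobp* encodes DAP12, the adaptor of many activating receptors of myeloid cells. It stood at 479 (control) and 397 RPKM (L1L2_Alb) in iHBs, at 309 (control), 104 and 193 RPKM in iHPs, and at 278 (control), 434 and 459.5 RPKM in iBECs. *Tyrobp* was therefore below its control in iHPs and above it in iBECs, in both libraries of each pair. The Fc receptor adaptor *Fcer1g* and the low-affinity receptor *Fcgr3* lay on the same sides of their controls in those 4 libraries.

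**Figure D2:**
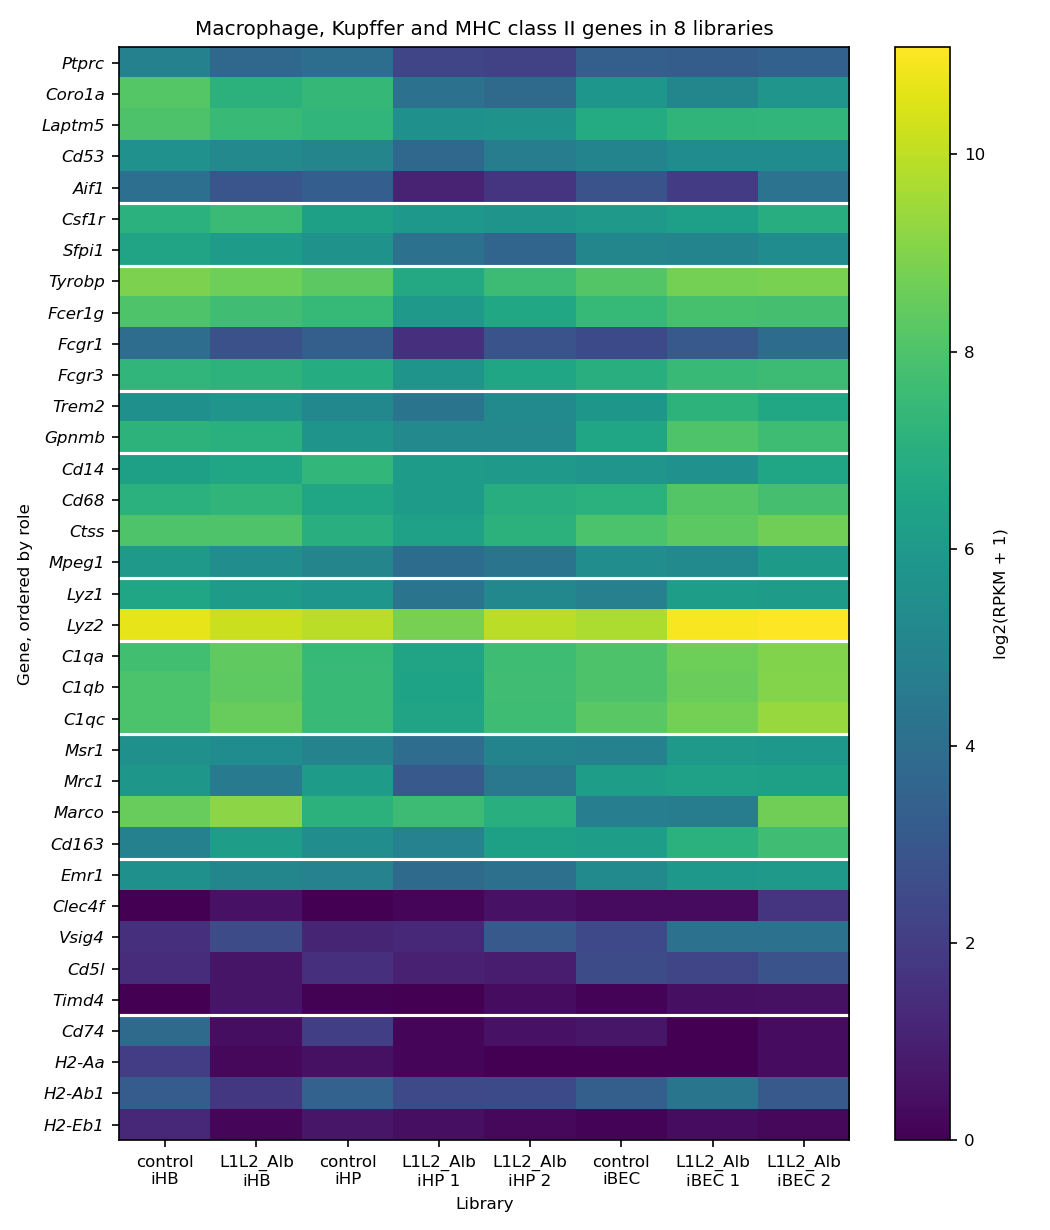
Level of each of the 35 members, as log2(RPKM + 1), in each of the 8 libraries. White lines separate groups of genes by role, from leukocyte-wide genes at the top to MHC class II at the bottom. *Lyz2* is the brightest row, and *Clec4f*, *Timd4*, *H2-Aa* and *H2-Eb1* are near 0 in most libraries.

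*Lyz2*, which encodes the lysozyme of macrophages and granulocytes, had the highest level of any member. It stood at 1622 (control) and 1189 RPKM (L1L2_Alb) in iHBs, at 989.5 (control), 448 and 989 RPKM in iHPs, and at 837.5 (control), 2019 and 2178 RPKM in iBECs. The 2 iHP libraries labelled L1L2_Alb differed from each other, and only the lower one was clearly below its control. *Lyz1* shares 28.5% of its windows of 36 bases with *Lyz2*, so reads could be split between the paralogs and the level of *Lyz1* is uncertain. Of the 31 members tested, the scavenger receptor *Marco* differed most between libraries of a condition, at 24.0 RPKM in L1L2_Alb iBEC 1 and 406 RPKM in L1L2_Alb iBEC 2. Control iBEC held 25.4 RPKM, and the iHB libraries held 364 and 571 RPKM.

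The other members are given by their ranges. Among leukocyte-wide genes and receptor adaptors, *Laptm5* ranged from 46.1 to 251 RPKM, *Cd53* from 12.3 to 47.6 RPKM, *Fcer1g* from 63.6 to 258 RPKM and the high-affinity Fc receptor *Fcgr1* from 1.84 to 14.6 RPKM, each lowest in L1L2_Alb iHP 1 and highest in control iHB. *Sfpi1* was lowest in L1L2_Alb iHP 2 (11.2 RPKM) and highest in control iHB (88.9 RPKM). A second set had its maximum in an iBEC library labelled L1L2_Alb, not always in both, and its minimum in L1L2_Alb iHP 1. In it, the lysosomal protein gene *Cd68* ranged from 69.5 to 274 RPKM, the scavenger receptor *Msr1* from 14.6 to 63.0 RPKM, the pore-forming *Mpeg1* from 14.0 to 64.3 RPKM, *Fcgr3* from 52.9 to 192 RPKM and the calcium-binding *Aif1* from 1.18 to 17.9 RPKM. For *Aif1* and *Mpeg1* the maximum was in L1L2_Alb iBEC 2. In L1L2_Alb iBEC 1 they were at 2.87 and 37.7 RPKM, below control iBEC (6.09 and 42.8 RPKM). *Cd14* differed from both sets, with its highest level in control iHP (162 RPKM) and its lowest in L1L2_Alb iBEC 1 (48.5 RPKM).

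C1q binds antibody and dying cells, and its 3 chains are encoded by *C1qa*, *C1qb* and *C1qc*. *C1qa* stood at 211 (control) and 334 RPKM (L1L2_Alb) in iHBs, at 173 (control), 86.8 and 199.6 RPKM in iHPs, and at 257 (control), 398 and 512 RPKM in iBECs. *C1qb* and *C1qc* were likewise lowest in L1L2_Alb iHP 1 and highest in L1L2_Alb iBEC 2. Relative to the core sum, C1q stood at 42.3% (control) and 80.2% (L1L2_Alb) in iHBs, at 53.0% (control), 77.2% and 129% in iHPs, and at 101% (control), 116% and 142% in iBECs. The share was above that of the control in 5 of 5 libraries labelled L1L2_Alb, by 0.92, 0.91 and 0.34 on the log2 scale in iHBs, iHPs and iBECs (mean 0.72, with an SD of 0.40 between libraries of a pair). Such a rise was not particular to C1q. The shares of *Cd68*, *Fcgr3*, *Trem2*, *Gpnmb*, *Msr1*, *Vsig4* and the core gene *Tyrobp* also exceeded their controls in every library labelled L1L2_Alb. Those of *Ptprc* and *Mrc1* were lower, by means of -0.62 and -0.82. In RPKM, the genotype fit gave *C1qa* a log2 difference of 0.33 (adjusted p = 0.587, limma). *Cd163*, the haemoglobin scavenger receptor, had a share higher by a mean of 1.33, and *Coro1a*, itself a core gene, one lower by a mean of -1.23. The core sum holds genes that neutrophils also express, and the summed neutrophil markers were lower in the same libraries. In L1L2_Alb iBEC 2, though, *Camp*, *Ltf*, *Ngp* and *Mmp8* of these markers were above control iBEC. The part of neutrophils was not tested.

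Of the genes of resident macrophages, *Emr1* encodes the antigen F4/80, *Vsig4* a complement receptor of Kupffer cells, and *Cd5l* a protein secreted by macrophages. *Emr1* stood at 46.6 (control) and 33.6 RPKM (L1L2_Alb) in iHBs, at 28.8 (control), 13.2 and 16.1 RPKM in iHPs, and at 38.2 (control), 60.2 and 61.9 RPKM in iBECs. *Vsig4* stood at 1.84 (control) and 4.92 RPKM (L1L2_Alb) in iHBs, at 1.22 (control), 1.44 and 7.44 RPKM in iHPs, and at 4.39 (control), 17.3 and 16.4 RPKM in iBECs. *Vsig4* was above its control in 5 of 5 libraries labelled L1L2_Alb, with a log2 difference of 1.29 across the stages (standard error 0.39, adjusted p = 0.0737, limma). *Clec4f*, which is restricted to Kupffer cells in the mouse, was at 0 in control iHB and control iHP, which allows up to 3 reads, and at 2.24 RPKM (128 reads) in L1L2_Alb iBEC 2, its highest library. *Timd4*, a receptor for phosphatidylserine on resident macrophages, did not exceed 0.545 RPKM. Of the 5 genes of Kupffer and resident macrophages, *Clec4f* and *Timd4* were thus at or near 0 in most libraries, whereas *Emr1*, *Vsig4* and *Cd5l* were measured in all 8.

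MHC class II RNA was scarce, and *Cd74*, *H2-Aa* and *H2-Eb1* were each highest in control iHB. *Cd74* stood at 13.1 (control) and 0.331 RPKM (L1L2_Alb) in iHBs, at 3.15 (control), 0.124 and 0.465 RPKM in iHPs, and at 0.595 (control), 0 and 0.285 RPKM in iBECs. *H2-Aa*, an alpha chain, was at 2.99 RPKM (91 reads) in control iHB, at 0.401 RPKM (12 reads) in control iHP, and at 7 reads or fewer in every other library. *Cd74* was below its control in 5 of 5 libraries labelled L1L2_Alb, with a log2 difference of -1.72 across the stages (standard error 0.46, adjusted p = 0.0517, limma). It passed with a pseudocount of 0.1 (-3.17, adjusted p = 0.0408), with upper-quartile scaling (adjusted p = 0.0471) and without iBECs (-2.43, adjusted p = 0.0169), and was -1.09 (adjusted p = 0.175) without iHBs. *H2-Eb1*, a beta chain, was at 64 reads in control iHB, 28 in control iHP and between 5 and 13 in the other libraries. *H2-Ab1*, also a beta chain, did not follow them: it stood at 8.39 (control) and 2.45 RPKM (L1L2_Alb) in iHBs, at 10.3 (control), 4.46 and 4.60 RPKM in iHPs, and at 9.33 (control), 19.1 and 7.45 RPKM in iBECs. Summed dendritic cell markers were also highest in control iHB, at 10.8 RPKM, and between 1.77 and 6.64 RPKM elsewhere, and summed B cell markers were at most 3.52 RPKM. Their part in the MHC class II values was not tested.

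**Figure D3:**
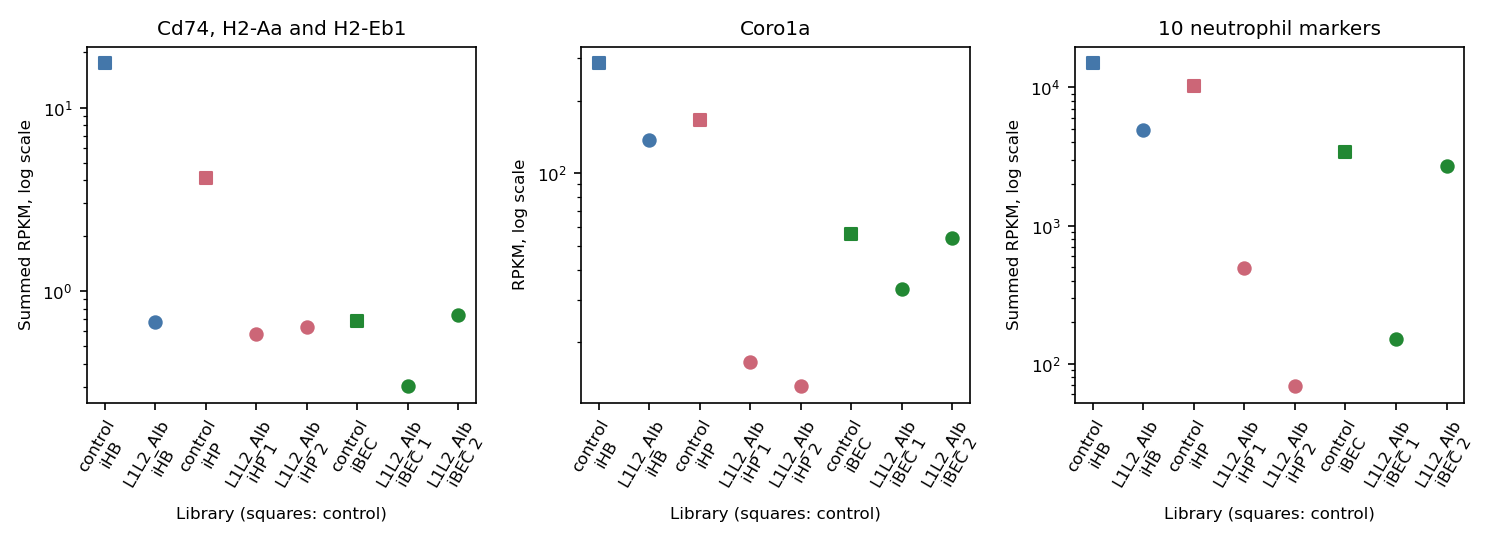
Summed RPKM of *Cd74*, *H2-Aa* and *H2-Eb1* (left), RPKM of *Coro1a* (middle) and summed RPKM of 10 neutrophil markers (right) in each of the 8 libraries, on log axes. Squares are controls and colours mark the stage. All are highest in control iHB, where the sum of the 3 MHC class II genes is 17.5 RPKM, and the neutrophil sum is lowest in L1L2_Alb iHP 2, at 68.6 RPKM.

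Of the 35 members, 31 had a mean of at least 1 RPKM and were tested, and *Clec4f*, *Timd4*, *H2-Aa* and *H2-Eb1* were not. For the effect of genotype across the stages, 0 of the 31 passed an adjusted p of 0.05 with limma, whereas 9.57% of the 13421 genes tested did. At an unadjusted p under 0.05 there were 6 members and 3524 genes. The median log2 difference of the members was -0.23, against 0.06 for all genes, and 13 of the 31 were above 0. This fit gives each gene 1 genotype difference for all stages. Set against the control of the stage, the members' median difference was -0.81 in iHPs and 0.59 in iBECs. A gene with opposite differences in 2 stages can therefore fail to pass. Without the iBEC stage 6 members passed, as did 10.4% of all genes, the 6 all lower in the libraries labelled L1L2_Alb (*Aif1*, *Cd74*, *Coro1a*, *H2-Ab1*, *Mrc1* and *Ptprc*). *Mrc1*, the mannose receptor, was lower in iHBs and iHPs (69.5 RPKM in the control of iHPs, 7.45 and 21.0 RPKM in the libraries labelled L1L2_Alb) but not in iBECs (74.4, 80.1 and 78.0 RPKM).

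Within each stage, the libraries labelled L1L2_Alb were set against the 1 control without a test. In iHBs, 2 of 31 members were at least 2-fold above the control on the log2(RPKM + 1) scale (*Cd163* and *Vsig4*; 5.6% of all genes) and 7 at least 2-fold below it (8.99% of all genes). The 7 were *Aif1*, *Cd74*, *Coro1a*, *Fcgr1*, *H2-Ab1*, *Mrc1* and *Ptprc*. In iHPs, 0 members were at least 2-fold above the control in both libraries (4.64% of all genes) and 9 were below it in both (8.26% of all genes). Those 9 were *Aif1*, *Cd14*, *Cd74*, *Coro1a*, *H2-Ab1*, *Laptm5*, *Mrc1*, *Ptprc* and *Sfpi1*, of which *Cd14* encodes the endotoxin co-receptor and *Sfpi1* the factor PU.1. In iBECs, 5 members were above the control in both libraries (4.19% of all genes) and 0 were below it in both (1.62% of all genes). The 5 were *Gpnmb*, *Lyz1*, *Lyz2*, *Msr1* and *Vsig4*, which became 3 with upper-quartile scaling and 1 with quantile normalization. The members' median difference came to -0.35 for iHBs, -0.81 for iHPs and 0.59 for iBECs, against -0.09, -0.01 and 0.25 for all genes. Without L1L2_Alb iHP replicate 2, 20 members were at least 2-fold below the control of iHPs (10.9% of all genes), and without L1L2_Alb iBEC replicate 1, 11 were at least 2-fold above that of iBECs (7.44% of all genes).

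**Figure D4:**
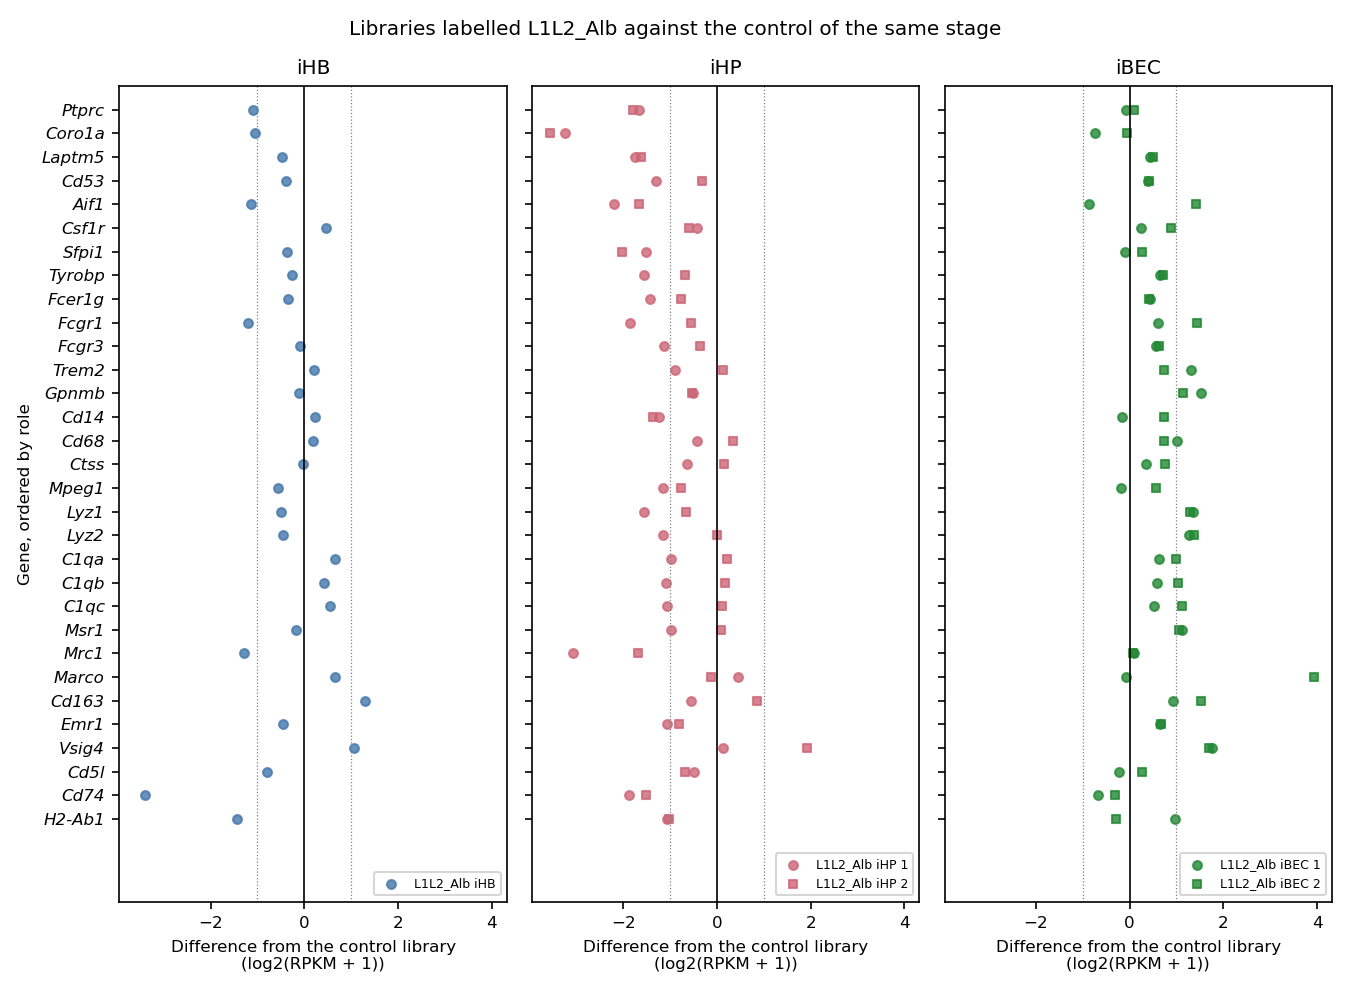
Difference of each library labelled L1L2_Alb from the control library of its stage, in log2(RPKM + 1), for the 31 members tested. Circles and squares are the separate libraries and dotted lines mark a 2-fold difference. Of the 31 members, 21 were lower in both libraries of iHPs, as were 35.9% of all genes, and 21 were higher in both of iBECs, as were 62.2% of all genes.

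The difference of the genotype effect between the stages was tested with a moderated F test in limma, which passed 0 of 31 members and 0.0% of all genes. At an unadjusted p under 0.05 there were 9 members and 733 genes, and the smallest adjusted p of a member was 0.46, for *Coro1a*. The test had 2 residual degrees of freedom.

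Between the stages, with both genotypes in the fit, most members lay lower in iHPs than in iHBs. The median log2 difference of the members was -0.97, against -0.15 for all genes, and 28 of 31 were below 0. No member passed the threshold, 0 of 31 with limma, as for 0.0% of all genes, and 14 members and 1158 genes had an unadjusted p under 0.05. Without the control iHP library 3 members passed (*Coro1a*, *Laptm5* and *Sfpi1*, all lower in iHPs), as did 0.41% of all genes.

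In iBECs against iHBs the members' median log2 difference was 0.11, against -0.25 for all genes, and 16 of 31 were above 0. *Cd5l* was the 1 member of 31 that passed, and it rose (2.94% of all genes rose). *Cd5l* was at 1.69 and 0.547 RPKM in control and L1L2_Alb iHB, at 1.84, 1.01 and 0.783 RPKM in the iHP libraries, and at 4.90, 4.06 and 6.12 RPKM in the iBEC libraries, so every iBEC library was above every other one. Its log2 difference from iHBs was 1.62 (standard error 0.30, adjusted p = 0.02, limma). The call was lost in 5 of 16 alternatives, among them without L1L2_Alb iBEC replicate 2 (adjusted p = 0.0558) and without the control iHB library (adjusted p = 0.0977). *Marco* had the largest difference in the other direction, -2.98 (standard error 1.00, adjusted p = 0.126), which became -4.15 (adjusted p = 0.0021) without L1L2_Alb iBEC replicate 2.

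In the fit over both genotypes, 28 of 31 members lay higher in iBECs than in iHPs. In the controls alone 14 of the 31 were higher in iBECs (29.7% of all genes), and the core sum was 802 RPKM in control iBEC against 1020 RPKM in control iHP. In the libraries labelled L1L2_Alb, 28 of the 31 were higher in both iBEC libraries than in both iHP libraries (25.4% of all genes). Of 31 members, 5 rose with limma (*Gpnmb*, *Trem2*, *Ctss*, *Emr1* and *Cd5l*), against 2.45% of all genes that rose, and 0 fell. The members' median log2 difference was 1.00, against -0.09 for all genes, and 19 members and 2984 genes had an unadjusted p under 0.05. *Gpnmb* and *Trem2* are expressed by macrophages that take up lipid. *Gpnmb* was at 52.4, 36.6 and 35.8 RPKM in the iHP libraries and at 90.6, 263 and 200.4 RPKM in the iBEC libraries, with no overlap. Its log2 difference was 2.01 (standard error 0.36, adjusted p = 0.0256). *Trem2* was at 34.7, 18.1 and 38.0 RPKM in iHPs and 57.0, 143 and 94.96 RPKM in iBECs, again with no overlap, a log2 difference of 1.64 (standard error 0.37, adjusted p = 0.0489). *Ctss*, the lysosomal protease cathepsin S, differed by 1.47 (standard error 0.28, adjusted p = 0.0297), *Emr1* by 1.46 (standard error 0.32, adjusted p = 0.0446) and *Cd5l* by 1.46 (standard error 0.27, adjusted p = 0.0266). *Ctss* was at 126, 81.3 and 141 RPKM in iHPs and 242.5, 309.9 and 412 RPKM in iBECs. The calls changed with single libraries, for the members and for all 13421 genes, of which 553 passed with every library. Without L1L2_Alb iHP replicate 1, 0 members and 156 genes passed. Without L1L2_Alb iBEC replicate 1 it was 0 members and 233 genes. Without L1L2_Alb iBEC replicate 2 it was 1 member (*Marco*, lower) and 169 genes. Without L1L2_Alb iHP replicate 2, 4 members and 987 genes passed. Without the control iBEC library 15 members passed, as did 6.74% of all genes.

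**Figure D5:**
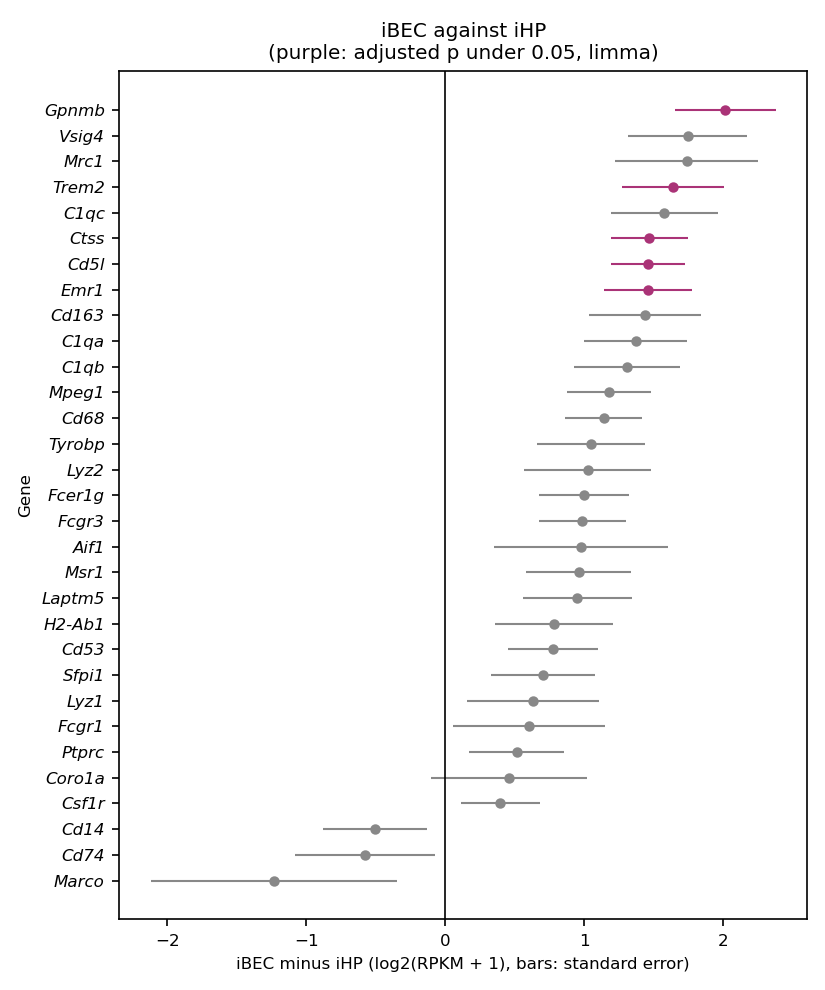
Log2 difference of iBECs from iHPs in log2(RPKM + 1) for the 31 members tested, with standard errors, from the fit with stage and genotype. Purple marks the 5 members past an adjusted p of 0.05, and 28 of the 31 members lie right of 0.

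Further genes of the same pathways were followed in lists, and the counts over all 13421 genes tested stand beside them here. With genotype 832 of all genes rose and 452 fell. In iBECs against iHBs 395 rose and 373 fell, and in iBECs against iHPs 329 rose and 224 fell. Of 25 other surface genes of macrophages, all tested, 1 fell with genotype. That gene was *Ccr2*, the chemokine receptor of inflammatory monocytes, which stood at 16.2 (control) and 2.56 RPKM (L1L2_Alb) in iHBs, at 7.57 (control), 0.922 and 0.327 RPKM in iHPs, and at 1.44 (control), 0.215 and 0.386 RPKM in iBECs. *Ccr2* was below its control in every library labelled L1L2_Alb, with a log2 difference of -1.83 (standard error 0.32, adjusted p = 0.0132, limma). In iBECs against iHBs, 2 of the 25 fell, *Ccr2* (-1.98, adjusted p = 0.0283) and the lectin receptor *Clec4e* (-4.20, adjusted p = 0.0422), and in iBECs against iHPs 1 rose (*Ms4a7*, 1.59, adjusted p = 0.0309). Markers of other blood cells were also tested for genotype. Of 2 for dendritic cells, *Flt3* fell (-1.38, adjusted p = 0.0286, limma). Of 4 for mast cells, basophils and eosinophils, *Prg2* of eosinophils fell (-3.74, adjusted p = 0.0119), and 1 of the 4 had a difference above 0. *Mcpt8* of that list did not pass and was at 2.35 (control), 3.88 and 3.08 RPKM in iHPs. In iBECs it was at 2.23 (control), 1.94 and 4.10 RPKM, and in iHBs at 1.68 (control) and 1.33 RPKM. Of 2 erythroid genes, the globin gene *Hbb-b1* fell (-2.09, adjusted p = 0.0335). *Alas2* of the erythroid list, not tested, lay on both sides of its control in iHPs (0.785 in the control, 1.39 and 0.288 RPKM). *Nkg7*, the 1 tested of 8 for T and NK cells, fell too (-1.43, adjusted p = 0.0324). *Lck* of that list, not tested, was above its control in every library labelled L1L2_Alb (0.613 and 0.734 RPKM in iHBs). Of 10 neutrophil and 5 megakaryocyte markers, 0 passed for genotype. The other tested dendritic cell marker, *Zbtb46*, was above its control in 5 of 5 libraries labelled L1L2_Alb (1.29 and 2.64 RPKM in iHBs) and did not pass. The genotype call was lost in 7 of 15 alternatives for *Nkg7*, 6 of 15 for *Flt3* and 2 of 15 for *Ccr2*. It was lost in 6 of 16 for *Hbb-b1* and 2 of 16 for *Prg2*. Of 10 tested genes of resident and iron-handling macrophages, 3 rose in iBECs against iHPs, namely *Lyve1* (2.25, adjusted p = 0.0415), the scavenger receptor *Stab1* (1.89, adjusted p = 0.0362) and the folate receptor *Folr2* (1.76, adjusted p = 0.049). *Lyve1* also rose in iBECs against iHBs (2.47, adjusted p = 0.0351). Of 19 alternatives, the calls in iBECs against iHPs were lost in 10 for *Lyve1*, 7 for *Stab1* and 10 for *Folr2*. Of 8 tested genes of MHC class II assembly and loading and 7 of its transcription, 0 passed in any of the 4 comparisons with limma, and *Ciita*, the master regulator of the class, was under 1 RPKM everywhere. Of 16 genes of the NADPH oxidase and of myeloid signalling, 3 fell in iBECs against iHBs (*Ncf4*, *Fgr* and *Lyn*). Of 9 tested transcription factors of macrophages, *Cebpb* rose in iBECs against iHPs (1.10, adjusted p = 0.0335). Of 6 tested growth factors and receptors, 0 passed in any of the 4 comparisons.

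Among genes in none of the lists, those whose log2 level followed the core sum most closely over the 8 libraries were *Themis2* (Pearson r = 0.987), *Cyth4* (0.986) and *Alox5ap* (0.984), which encodes the activator of 5-lipoxygenase. The next were *Kcnk6*, *Gpsm3*, *Tm6sf1*, *Tnfaip8l2*, *Tusc1*, *Pstpip1* and *Psmb8*, down to 0.971. The libraries share stages, and genes of other blood cells can follow the same sum. Of the members, *Laptm5* was closest (0.988), while *Vsig4* (0.18), *Cd163* (0.22) and *Marco* (0.24) were farthest. Core genes are part of the sum they were compared with.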

How the data were processed

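RNA of 8 libraries was prepared with a TruSeq kit and sequenced by the authors, who deposited 1 table of RPKM values per gene. The unit was inferred from the values. The submitters' processing notes name Bowtie 0.12.2 and mm8, and the counting method is not given in the sources used here. Of 23471 entries, 4 with repeated symbols were left out, which left 23467 genes. Depth and whole reads were recovered from short RNA genes of known length (29 of the 35 members gave whole reads within 0.005), and 3 reads were taken as the floor. Intervals from reads cover counting error only. No count model was run.

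Genes averaging 1 RPKM or more over the libraries were fitted as log2(RPKM + 1), which understates changes of low genes, with limma 3.58.1 in R 4.3.3 (lmFit and eBayes with trend) on stage and genotype over all 8 libraries (4 residual degrees of freedom). P-values are two-sided and adjusted by the Benjamini-Hochberg method over all genes, with a threshold of 0.05. The fit has no term for a genotype effect that differs between stages, so such differences enter its residual spread. The F test between stages used the 6 conditions (2 residual degrees of freedom). Single stages were compared without a test. The procedure was tested on simulated data. Python 3.11.15 with pandas 2.3.3 and matplotlib 3.10.9 made the tables and figures. Values are given per library for members past the threshold and for a fixed set of members, and for genes of 22 other lists past the threshold. The members and lists were chosen with earlier results of these data known. The alternatives were other pseudocounts, scalings, filters, thresholds and left-out libraries or stages.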

Additional observations from a re-analysis of the deposited data

Results flagged for a closer look

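For 12 members, both iHP libraries labelled L1L2_Alb were below their control and both iBEC libraries were above theirs, as were 14.4% of all 13421 genes tested. The difference between mean log2 differences of iBECs and iHPs was 2.16 for *Laptm5*, 1.21 for *Cd53*, 1.07 for *Csf1r*, 1.80 for *Tyrobp*, 1.52 for *Fcer1g* and 2.23 for *Fcgr1*. It was 1.34 for *Fcgr3*, 1.85 for *Gpnmb*, 2.42 for *Lyz1*, 1.90 for *Lyz2*, 2.46 for *Mrc1* and 1.60 for *Emr1*. The contrast of iBECs with iHPs alone was not tested. In the moderated F test over the 3 stages in limma, 5 of the 12 had an unadjusted p under 0.05 and the smallest adjusted p among them was 0.563. Each direction rests on 1 control library per stage.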

How the results depend on the processing

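For genotype, 0 of 31 members and 1284 of 13421 genes were called in the fit reported. The counts were 4 members and 2215 genes at an adjusted p under 0.1, and 1 and 972 with libraries of a condition averaged. They were 1 and 1227 with a pseudocount of 0.1, 1 and 1294 with quantile normalization, and 1 and 1193 with upper-quartile scaling. Without the iBEC stage they were 6 and 1396, and with 1 replicate left out 0 to 2 and 793 to 1227. In iHPs against iHBs, 3 members and 55 genes were called without the control iHP library, against 0 and 0 in the fit reported. In iBECs against iHBs the 1 call became 0 with the libraries labelled L1L2_Alb alone, with a mean of at least 5 RPKM, with no filter on low values and without the control iHB library, and 2 without the control iHP library, and was 1 to 3 with 1 replicate left out. Without L1L2_Alb iBEC replicate 2 and with averaging, the 1 call was *Marco*, lower, in place of *Cd5l*. In iBECs against iHPs the fit reported called 5 members and 553 genes. The counts became 12 and 1234 at an adjusted p under 0.1, 0 and 62 with averaging, and 3 and 515 with eBayes without trend. With no filter they were 0 of 35 members and 211 of 20025 genes, and with quantile normalization 9 and 562. They were 15 and 904 without the control iBEC library and 2 and 289 without the control iHB library. With 1 replicate left out they were 0 to 4 and 156 to 987. The titles number the libraries labelled L1L2_Alb, but nothing ties equal numbers to 1 embryo and the deviations of same-numbered libraries correlated at -0.02. With the replicate number as a block on those 4 libraries 23 members passed (6.79% of all genes), and 6 without the block (3.41%), a fit added after the data were seen.

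Members at least 2-fold higher in iBECs numbered 3 with upper-quartile scaling, 1 with quantile normalization and 12 at 1.5-fold, and 7 to 11 with 1 replicate left out. Those lower in iHPs numbered 14 at 1.5-fold and 8 to 20 with 1 replicate left out, those higher in iHPs 0 to 1, and those higher in iHBs 4 at 1.5-fold. Over all genes, calls for genotype (1284) ranged from 132 without the iHP stage to 2215, in iHPs against iHBs (0) up to 55, in iBECs against iHBs (768) from 176 to 1739 and in iBECs against iHPs (553) from 62 to 1234. The genotype difference reversed for *Csf1r* with quantile normalization (-0.06) and without iBECs (-0.089), for *Lyz2* with the same settings (-0.044 and -0.52), and without iHPs for *Tyrobp* (0.27) and *Emr1* (0.18). The C1q share difference ranged from 0.61 to 0.82 with each core gene left out. The cause of these changes was not tested. Of genes in other lists, calls in iBECs against iHBs were lost for *Ncf4* in 10, *Lyn* in 9, *Clec4e* in 8 and *Fgr* in 7 of 17 alternatives. In iBECs against iHPs they were lost for *Cebpb* in 8, *Ms4a7* in 7 and *Ctsk* in 0 of 19. With genotype they were lost for *Ccl17* in 5, *Spp1*, *Cd36* and *Lgals3* in 7 and *Ptgs2* in 0 of 16. *H2-Aa*, *H2-Eb1*, *Timd4* and *Clec4f* fell under the filter of 1 RPKM, and with no filter 0 of these 4 passed in any of the 4 comparisons (lowest adjusted p = 0.159).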

Other observations

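Genes of macrophage states were followed in lists of their own. Which cells made the RNA of the genes below was not tested. Of all 13421 genes tested, 832 rose and 452 fell with genotype, and 329 rose in iBECs against iHPs. Of 9 tested genes of inflammatory activation, 1 rose with genotype. *Ptgs2*, which encodes cyclooxygenase-2 and is also expressed by other cells, stood at 24.7 (control) and 367 RPKM (L1L2_Alb) in iHBs, at 12.4 (control), 134 and 198 RPKM in iHPs, and at 4.27 (control), 25.6 and 68.9 RPKM in iBECs. It was above its control in every library labelled L1L2_Alb (log2 difference 3.47, standard error 0.33, adjusted p = 0.00149, limma). The chemokine *Ccl17*, of 7 tested genes of alternative activation, rose by 2.23 (adjusted p = 0.0253). Of 10 tested genes of resident and iron-handling macrophages, 1 rose with genotype, the receptor kinase *Axl* (1.32, adjusted p = 0.00676), at 91.4 and 242.5 RPKM in control and L1L2_Alb iHB. In iHPs *Axl* was at 73.3 (control), 169 and 231 RPKM, whereas the core sum was 1020 (control), 337 and 469.6 RPKM.

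Of 6 tested osteoclast genes, 3 rose in iBECs against iHPs. *Ctsk*, the collagen-degrading protease cathepsin K, was at 7.88, 3.99 and 5.00 RPKM in the iHP libraries and at 135, 107 and 36.9 RPKM in the iBEC libraries (log2 difference 3.68, standard error 0.36, adjusted p = 0.00487, limma). The proton pump subunit *Atp6v0d2* rose by 2.19 (adjusted p = 0.0135) and the matrix protease *Mmp9* by 2.08 (adjusted p = 0.0203). Of 11 tested lipid-associated and lysosomal genes, 1 rose in the same comparison, *Spp1* (2.59, adjusted p = 0.0126), which biliary cells also express. With genotype, *Cst7* (-2.18, adjusted p = 0.0175), *Cd36* (-1.60, adjusted p = 0.039) and *Spp1* (-1.50, adjusted p = 0.0306) fell and *Lgals3* (1.04, adjusted p = 0.0402) rose.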
